A study of Mus musculus with 233 samples.

Results

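Stathmins and axon growth genes were followed through a bulk RNA sequencing study of mouse striatum: the 4 stathmins Stmn1, Stmn2, Stmn3 and Stmn4, the growth-cone membrane protein genes Gap43 and Basp1, the injury-induced transcription factor gene Atf3, and Gprasp2, which encodes a sorting protein for G protein-coupled receptors. The 8 members were taken by symbol from 41129 gene entries, and all 8 passed the filter on low counts in every fit. Stmn2 was chosen by its measured response to a huntingtin repressor, which differed between genotypes (a negative interaction), so that this interaction, and every comparison that enters it, is described for Stmn2 without a test. The comparison of genotypes under a control virus that does not enter the interaction was tested for Stmn2 as well.

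Stathmins bind soluble tubulin dimers and promote the shortening of microtubules, and phosphorylation turns this activity off. Stmn1 encodes the cytosolic family member, while the proteins of Stmn2 (SCG10), Stmn3 (SCLIP) and Stmn4 (RB3) are neuronal and carry a membrane anchor. STMN2 is transported into axons and growth cones and is turned over quickly, and its loss from human motor neurons when TDP-43 fails has made it a marker of axon maintenance. GAP43 and BASP1 are acidic proteins of the inner growth-cone membrane that act on phosphoinositides and actin. ATF3 is switched on by axon injury and by cell stress. GPRASP2 directs internalised receptors in the cell, and its gene lies in an X-linked cluster with other Gprasp, Armcx, Bex and Tceal genes.

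The repressor used in the study is directed at CAG repeats, so runs of CAG in the members were examined. In the annotated transcripts (GENCODE M21, GRCm38) the longest run of consecutive CAG triplets was 2 in Stmn2, Stmn4, Atf3 and Gprasp2 and 1 in Stmn1, Stmn3, Gap43 and Basp1. A run of 2 or more occurs in 54.1% of gene symbols. RefSeq promoter windows (GRCm38.p6, 250 bases before to 50 after the start) were at hand for 4 of the 8 members, Stmn3, Basp1, Atf3 and Gprasp2. None of the 4 holds CAGCAGCAG on either strand in the upstream 250 bases, where 1.28% of 32851 windows hold it. The upstream 250 bases of 2 of them are shown 5′ to 3′: Gprasp2 because it is the member whose change under the repressor was tested and passed in the most paradigms, and Atf3 because its own factor family binds a short named motif. Capitals mark the GC box on the reverse strand (CCGCCC) in Gprasp2, at chrX:135838784-135839033 on the plus strand, and TTACGTCA, the reverse complement of the CRE-like motif TGACGTAA, in Atf3, at chr1:191183334-191183583 on the minus strand.
Gprasp2: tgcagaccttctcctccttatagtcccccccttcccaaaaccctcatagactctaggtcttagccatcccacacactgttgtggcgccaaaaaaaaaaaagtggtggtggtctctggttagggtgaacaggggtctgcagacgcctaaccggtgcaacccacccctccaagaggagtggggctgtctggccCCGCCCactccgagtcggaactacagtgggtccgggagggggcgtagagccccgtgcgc
Atf3: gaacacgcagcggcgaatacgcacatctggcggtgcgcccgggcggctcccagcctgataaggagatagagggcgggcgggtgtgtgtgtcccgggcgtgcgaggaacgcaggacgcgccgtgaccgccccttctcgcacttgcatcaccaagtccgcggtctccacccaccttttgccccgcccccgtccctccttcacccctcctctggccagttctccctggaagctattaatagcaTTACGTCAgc
In the upstream 250 bases the GC box GGGCGG occurs once in the Gprasp2 window, 4 times in that of Basp1, 5 times in that of Atf3 and not in that of Stmn3, counting both strands. Of all windows, 32.7% hold it in these bases. TGACGTAA is in the upstream bases of 0.447% of windows, and among the 4 members only in that of Atf3. The palindromic CRE motif TGACGTCA, in those of 1.55% of windows, is in none of the 4. These matches describe the letters of the windows and nothing about binding.

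Heterozygous zQ175DN knock-in mice, in which human HTT exon 1 carrying an expanded CAG tract stands in place of that of Htt, and wild-type (WT) littermates were injected with adeno-associated virus in both striata. The virus nZFP expressed the zinc finger repressor ZFP30645 from the neuronal human synapsin promoter, DBD expressed the same protein without its DNA-binding domain from the same promoter, and Estop held a stuffer that encodes no protein. Injection and collection ages in months name 5 paradigms. Mice injected at 2 months were collected after 4 (2M_6M) or 6 months (2M_8M), and those injected at 6 months after 2 (6M_8M), 4 (6M_10M) or 6 months (6M_12M). Lists of 5 values follow this order of paradigms. The 30 groups held 6 to 8 libraries, 233 in all, from 120 mice of both sexes, of which 113 gave 1 library per hemisphere. Every mouse carried 2 injected hemispheres, so that no untreated striatum enters any comparison, and in whole tissue fewer cells of a type and less RNA per cell cannot be told apart.

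Libraries held 27993200 to 61296100 expected counts. The tissue label was checked by marker sums: 13 medium spiny neuron markers together held 12853 to 14718 CPM (counts per 1000000 counts) in the 7 WT Estop libraries of 2M_6M, against 23.9 to 31.2 CPM for 9 cortical excitatory markers. Other groups were less even. In 6M_8M the cortical sum reached 149 CPM in zQ175 Estop and 102 CPM in zQ175 nZFP. There 7 ependymal and choroid plexus markers reached 695 CPM in WT DBD, beside a group median of 17.2 CPM. The repressor and vector entries went against the label in 4 libraries. WT DBD R7 and R8 of 6M_8M held 321 and 480 CPM of the repressor, the library labelled zQ175 nZFP R5 of 6M_8M held 8.55 CPM, and WT DBD R6 of 2M_6M held 59.2 CPM of the vector element WPRE. The 13 medium spiny neuron markers summed to 7316 and 9183 CPM in R7 and R8, and to 10673 CPM in R5. In 6M_8M they held 9078 to 12796 CPM (median 12193) in WT Estop and 6101 to 7630 CPM (median 7379) in zQ175 Estop. The value of 9078 CPM was that of WT Estop R2, a library that also stood apart from its group in Stmn2 and Gprasp2. Whether the genotype labels of R7, R8 and R5 hold was not tested. A further 3 libraries, zQ175 DBD R3 of 2M_6M, WT DBD R2 and zQ175 nZFP R2 of 6M_10M, stood apart by a low level of long relative to short genes. Their length index, the mean log2(CPM + 1) of long minus that of short expressed protein-coding genes (upper and lower quartile of length), was -0.21, -0.13 and -0.30, and it was below 0 in no other library. The next lowest values were 0.07 in WT Estop R1 of 6M_12M and 0.09 in WT Estop R4 of 2M_8M. Values without these 3 libraries, or without those that went against their label, are given beside results whose call or direction they changed, or whose size they moved by over 1.5 times. Shares of all genes and counts of listed genes are given with all libraries only.

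Per length, Stmn3 was the most abundant member and Atf3 by far the least. In the 37 WT Estop libraries the median level was 472 TPM (relative transcript abundance, corrected for gene length) for Stmn3, 390 TPM for Gap43, 301 TPM for Stmn1, 287 TPM for Stmn4, 116 TPM for Basp1, 74.4 TPM for Stmn2, 67.5 TPM for Gprasp2 and 0.917 TPM for Atf3. Neighbours in this order overlapped in range, apart from Gprasp2 (38.8 to 149 TPM) and Atf3 (0.173 to 3.80 TPM). In the 40 zQ175 Estop libraries Stmn2 stood at a median of 147.5 TPM, above Basp1 at 141 TPM, and the other members kept their places. Atf3 rests on 6 to 221 counts per library, the other members on 1535 counts or more.

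Stmn2 was higher in zQ175 than in WT striatum in every paradigm under the Estop virus, and Gprasp2 moved in the same way. Over the 8 members and 5 paradigms, 17 of 40 tests passed (edgeR quasi-likelihood test, Benjamini-Hochberg adjusted p under 0.05 over all genes tested), 15 with higher and 2 with lower levels in zQ175. The share of all genes tested that passed was 19.4%, 16.9%, 14.7%, 23.2% and 17.4%. The members were not drawn at random, so their count is not evidence of its own.

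In 2M_6M, Stmn2 ran from 61.0 over a median of 66.4 to 80.0 CPM in the 7 WT Estop libraries and from 123 over 128 to 153 CPM in the 8 zQ175 Estop libraries. The genotypes did not overlap there, nor in 2M_8M (50.2 to 72.3 against 103 to 136 CPM), 6M_10M (57.6 to 73.7 against 120.5 to 155 CPM) or 6M_12M (50.4 to 60.6 against 99.0 to 125 CPM). Genes whose groups did not overlap made up 10.5%, 5.15%, 9.48% and 7% of all genes tested in these paradigms, and 3.54% in 6M_8M. In 6M_8M they overlapped through 1 library, WT Estop R2 at 142.7 CPM, where the next WT Estop library stood at 81.1 CPM and zQ175 libraries at 117 to 139 CPM. The log2 difference was 0.86 (SE 0.07, adjusted p = 2.16e-12), 0.86 (SE 0.07, adjusted p = 8.58e-14), 0.71 (SE 0.14, adjusted p = 0.000373), 0.99 (SE 0.09, adjusted p = 4.89e-12) and 0.93 (SE 0.05, adjusted p = 8.48e-19), which is 1.64-fold to 1.99-fold. Without WT Estop R2, a library picked out for its own Stmn2 and Gprasp2 values, the 6M_8M difference was 0.87. That value shows what 1 library decides and is not support.

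**Figure D1:**
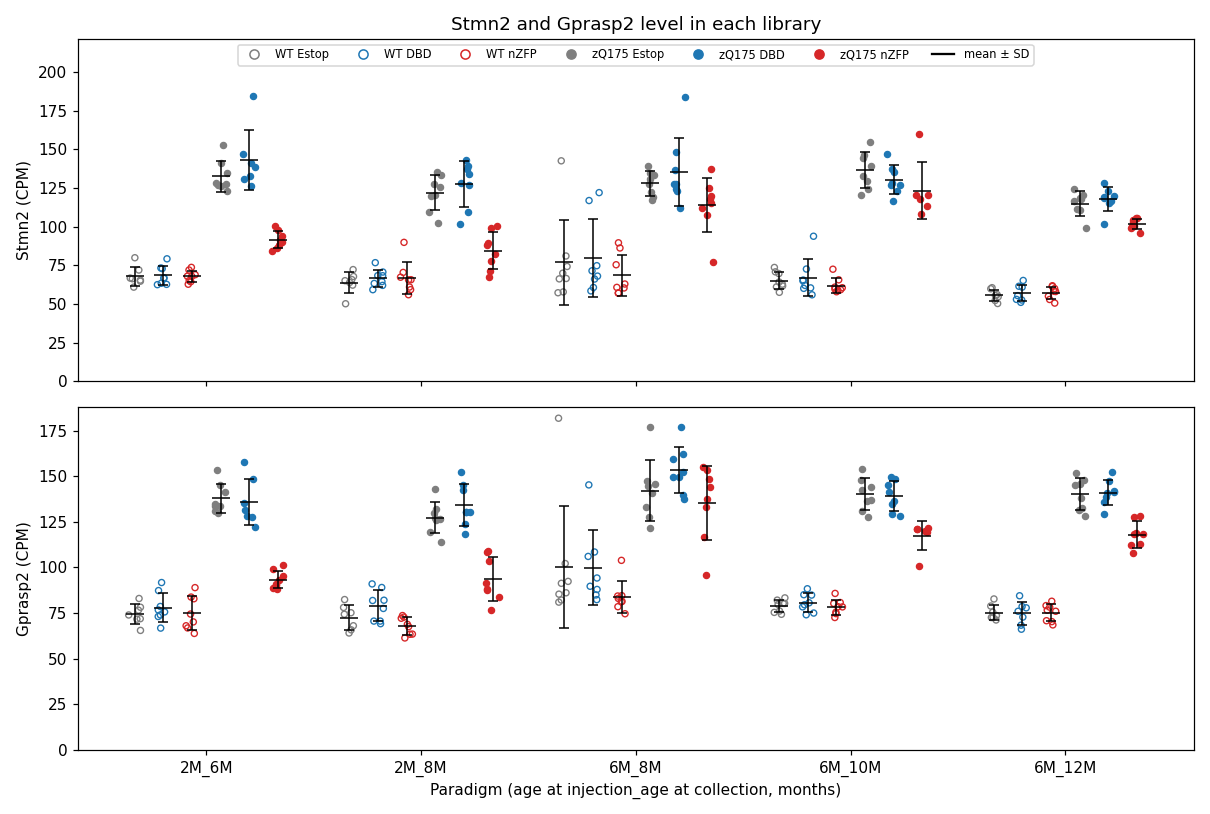
Stmn2 (top) and Gprasp2 (bottom) in CPM (y axis) in each of the 233 libraries by paradigm (x axis), with open points for WT, filled points for zQ175, colours for the virus and bars for the mean ± SD of a group. The means of zQ175 under Estop (115 to 137 CPM of Stmn2) sit above those of WT (55.7 to 77.0 CPM), and zQ175 nZFP lies between them in 2M_6M (91.6 CPM) and 2M_8M (84.6 CPM).

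Gprasp2 rose in zQ175 under Estop in all 5 paradigms, by a log2 difference of 0.80 (SE 0.06), 0.74 (SE 0.07), 0.48 (SE 0.11), 0.75 (SE 0.04) and 0.78 (SE 0.05). Its level in 2M_6M was 65.5 to 83.0 CPM (median 73.9) in WT and 130 to 154 CPM (median 134) in zQ175. The genotypes overlapped only in 6M_8M, again through WT Estop R2 at 181.9 CPM, and the adjusted p was 0.00197 there and at most 2.13e-11 elsewhere. Gprasp2 transcripts share runs of 414 bases with Bhlhb9 and 310 bases with Gprasp1, neighbours in its X-linked cluster, so the assignment of some of its reads is uncertain. The stathmins share at most 43 bases (Stmn1 with Stmn2).

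The growth-cone genes had smaller fitted differences than Stmn2. Gap43 differed by a log2 value of 0.26, 0.26, 0.22, 0.27 and 0.18 under Estop and passed in 2M_8M (246 ± 27.9 CPM in 7 WT libraries, 310 ± 14.7 CPM in 8 zQ175 libraries, SD, adjusted p = 0.00186). In 6M_10M its groups were apart (223 to 282 CPM against 289 to 372 CPM) while the adjusted p was 0.0856. That paradigm holds 2 of the length-index libraries, in groups other than these, and without them the difference was 0.26 with an adjusted p of 0.000287. In 2M_6M, which holds the other, the Gap43 difference passed without it (0.25, adjusted p = 0.00408). Basp1 differed by 0.21, 0.24, 0.17, 0.25 and 0.25 and passed in 2M_6M (101 ± 7.64 CPM in WT, 125 ± 12.3 CPM in zQ175) and 6M_10M (95.8 ± 9.43 CPM and 120 ± 15.9 CPM).

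Atf3 was low throughout, with group means from 0.678 to 2.80 CPM, and its differences had wide errors. Under Estop it rose in zQ175 in 6M_10M, from 0.908 ± 0.274 to 2.15 ± 1.28 CPM (SD, n = 8 each), a log2 difference of 1.15 (SE 0.27, adjusted p = 0.00119). It also passed in 6M_12M, from 0.720 ± 0.278 CPM (n = 7) to 1.39 ± 0.651 CPM (n = 8), with an adjusted p of 0.0468 that became 0.0616 without the filter on low counts. In the other paradigms its differences of 0.41, 0.60 and 0.71 did not pass. Under Estop the 6M_8M groups, collected 2 months after injection, had the highest mean Atf3 of each genotype: 1.65 ± 0.830 CPM in WT Estop and 2.80 ± 0.976 CPM in zQ175 Estop. The 2M_8M groups were collected at the same age of 8 months, with means of 0.678 CPM in WT Estop and 1.09 CPM in zQ175 Estop. Between 2M_8M and 6M_8M the age at injection and the treatment time differ together and cannot be told apart.

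Of the other stathmins, Stmn4 was lower in zQ175 in 2 paradigms and Stmn1 and Stmn3 passed in none. Stmn4 fell in zQ175 under Estop in 2M_6M (195 ± 9.07 CPM in WT, 177 ± 9.44 CPM in zQ175, a log2 difference of -0.24, SE 0.07, adjusted p = 0.00704) and 2M_8M (-0.21, adjusted p = 0.0361), and did not pass in the later paradigms (-0.01, -0.07 and -0.16). Stmn1 differed by -0.05, 0.18, 0.20, 0.22 and 0.13 and Stmn3 by 0.03, 0.13, 0.10, 0.23 and 0.10, none passing. Without the length-index libraries, which are not in these groups, both passed in 6M_10M (Stmn1 0.21, adjusted p = 0.00695, Stmn3 0.21, adjusted p = 0.0386). The values that did not pass are not shown to be 0: the SE reached 0.18 for Stmn1 and 0.20 for Stmn3. Whether Stmn2 differed from its relatives was not tested.

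**Figure D2:**
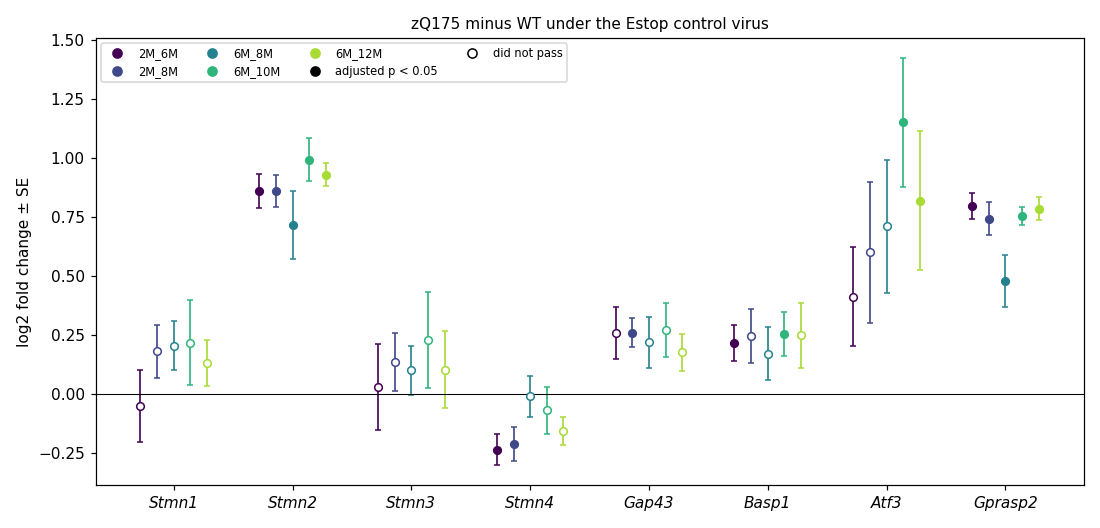
Log2 fold change of zQ175 over WT under the Estop virus (y axis, bars are SE) for the 8 members (x axis) in the 5 paradigms (colours), with filled points where the adjusted p is under 0.05. Stmn2 and Gprasp2 passed in all 5 paradigms, Stmn1 and Stmn3 in none, and Stmn4 lies below 0.

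Under the DBD virus, whose hemispheres came partly from the same mice, 14 of 35 tests passed, all with higher levels in zQ175 (Stmn2 left out). Of all genes, 28.7%, 18.7%, 9.12%, 24.2% and 18.3% passed. Gprasp2 rose in all 5 paradigms (0.75, 0.76, 0.58, 0.69 and 0.81), Basp1 in all but 6M_8M, and Gap43 in 2M_6M, 2M_8M and 6M_12M. Stmn1 (0.50) and Stmn3 (0.59) passed in 2M_6M alone, and both calls rested on zQ175 DBD R3, at 483 CPM of Stmn1 and 1006 CPM of Stmn3 where the next library of the group stood at 188 and 326 CPM. Without it the differences were 0.10 (adjusted p = 0.311) and 0.07 (adjusted p = 0.481), and the Gap43 call of 2M_6M ended too (0.16, adjusted p = 0.0938). Without the libraries that went against their label, Gap43 (0.37, adjusted p = 0.0215) and Basp1 (0.42, adjusted p = 0.00568) passed in 6M_8M and Atf3 in 2M_6M (0.63, adjusted p = 0.0190). Without the length-index libraries, Gap43 (0.35, adjusted p = 5.73e-06) and Stmn1 (0.19, adjusted p = 0.0192) passed in 6M_10M, and Stmn4 passed as lower in 2M_6M (-0.15, adjusted p = 0.0394). Stmn2 under DBD, given as a description, was higher in zQ175 by 1.03, 0.92, 0.72, 0.86 and 0.94. The 2 WT DBD libraries of 6M_8M that held the repressor had 117 and 122 CPM of Stmn2, and without them the value was 0.98.

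Under nZFP the genotypes still differed. Of 35 tests 10 passed with higher and 3 with lower levels in zQ175, where 1.54%, 6.67%, 17.1%, 19.6% and 16.7% of all genes passed. Gprasp2 rose in zQ175 nZFP over WT nZFP in all 5 paradigms, by 0.29, 0.42, 0.62, 0.56 and 0.54. Stmn4 fell in 2M_8M (-0.33, adjusted p = 0.00214), 6M_8M (-0.30, adjusted p = 0.0137) and 6M_12M (-0.20, adjusted p = 0.0113). In 6M_8M the highest WT nZFP library was R8, at 258 CPM of Stmn4, where the next stood at 200 CPM. Its length index of 0.23 was the lowest of its group, and a difference without it is not given. Basp1 and Gap43 each rose in 6M_10M and 6M_12M, and Atf3 in 6M_12M (0.87, adjusted p = 0.0253). Without the length-index libraries the Basp1 call of 6M_10M ended (0.20, adjusted p = 0.0616), Stmn4 passed as lower there (-0.22, adjusted p = 0.000761) and Gap43 passed in 2M_6M (0.26, adjusted p = 0.0190). Stmn2, described only, differed by 0.39, 0.30, 0.67, 0.98 and 0.72.

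Under the repressor, Stmn2 was lower in zQ175 mice, by more after injection at 2 months than after injection at 6 months. In 2M_6M it ran from 126.5 over 139 to 185 CPM in the 7 zQ175 DBD libraries and from 84.1 over 90.8 to 100.3 CPM in the 8 zQ175 nZFP libraries. In 2M_8M the ranges were 101.5 to 143 CPM under DBD (median 131) and 67.7 to 100.3 CPM under nZFP (median 85.5). In both paradigms the viruses did not overlap, as in 4.23% and 1.08% of all genes tested. Stmn2 was chosen by these values, so this separation is not support. After injection at 6 months they overlapped: 112 to 184 against 77.0 to 138 CPM in 6M_8M, 117 to 147 against 108 to 160 CPM in 6M_10M, and 101.5 to 128 against 95.9 to 106 CPM in 6M_12M. The log2 differences of nZFP minus DBD were -0.62 (SE 0.07), -0.56 (SE 0.06), -0.20 (SE 0.14), -0.04 (SE 0.10) and -0.23 (SE 0.05). Against Estop they were -0.48, -0.50, -0.17, -0.10 and -0.21. Without the length-index libraries the value of 2M_6M was -0.51 and that of 6M_10M -0.16. The lowest Stmn2 of zQ175 nZFP in 6M_8M belonged to R5, the library that held 8.55 CPM of the repressor. Without it the 7 others ran from 108 to 138 CPM, still overlapping DBD, and the 6M_8M value was -0.13.

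In WT mice Stmn2 differed between nZFP and DBD by 0.01, 0.07, -0.15, -0.15 and -0.00 (SE 0.05 to 0.14). The 6M_8M value turned to 0.10 without the 2 WT DBD libraries that held the repressor, and the 6M_10M value was -0.04 without the length-index libraries. The interaction that chose Stmn2 was -0.64 (SE 0.10), -0.62 (SE 0.09), -0.05 (SE 0.20), 0.11 (SE 0.13) and -0.22 (SE 0.07). For Gprasp2 the same difference was -0.46, -0.34, 0.05, -0.14 and -0.27, and for Stmn4 it was -0.05, -0.17, -0.22, 0.20 and -0.16. For Stmn1 it was -0.47, -0.04, -0.21, 0.51 and -0.10, and for Stmn3 -0.61, -0.27, -0.29, 0.61 and -0.27. All of these are given with no test. Several of these interactions rested on the libraries named above. Without those that went against their label, the 6M_8M interaction was -0.23 for Stmn2 and turned to -0.03 for Gprasp2. Without the length-index libraries, the 6M_10M interaction turned to -0.12 for Stmn2 and for Stmn4, and the 2M_6M interaction was -0.52 for Stmn2 and 0.04 for Stmn4. For Stmn1 and Stmn3 the 2M_6M interaction was then -0.05 and -0.07, and that of 6M_10M turned to -0.19 and -0.17. The difference between early and late injection at equal treatment time, also a description, was -0.57 (SE 0.14) for Stmn2 in 2M_6M minus 6M_10M and -0.33 (SE 0.13) in 2M_8M minus 6M_12M. The first of these was -0.33 (SE 0.13) as well without the length-index libraries.

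Among the tested members, Gprasp2 fell under nZFP in zQ175 mice in 4 of 5 paradigms. Over the 7 members and 5 paradigms 6 of 35 tests passed, all lower, where 14.4%, 2.9%, 0.0688%, 0.41% and 0.573% of all genes passed with lower levels. Gprasp2 ran from 122 to 158 CPM under DBD and from 88.3 to 101 CPM under nZFP in 2M_6M, and from 118 to 152 and 76.8 to 109 CPM in 2M_8M. In 6M_10M the ranges were 128 to 150 and 101 to 122 CPM, and in 6M_12M 129.4 to 153 and 108 to 128.4 CPM. The viruses did not overlap in these 4 paradigms, as in 4.23%, 1.08%, 0.77% and 0.657% of all genes. In 6M_8M, where 0.156% of all genes had no overlap, they did, at 137.5 to 177 and 95.6 to 155 CPM. The value of 95.6 CPM was again that of R5, and the 7 others ran from 117 to 155 CPM. The log2 differences were -0.51 (SE 0.06, adjusted p = 4.99e-09), -0.49 (SE 0.07, adjusted p = 1.0e-06), -0.14 (SE 0.11), -0.21 (SE 0.04, adjusted p = 0.00092) and -0.27 (SE 0.05, adjusted p = 0.00018). Against Estop they were -0.51, -0.42, -0.07, -0.22 and -0.29, and the same 4 paradigms passed. Without R5 and the other libraries that went against their label, the 6M_8M value was -0.08.

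**Figure D3:**
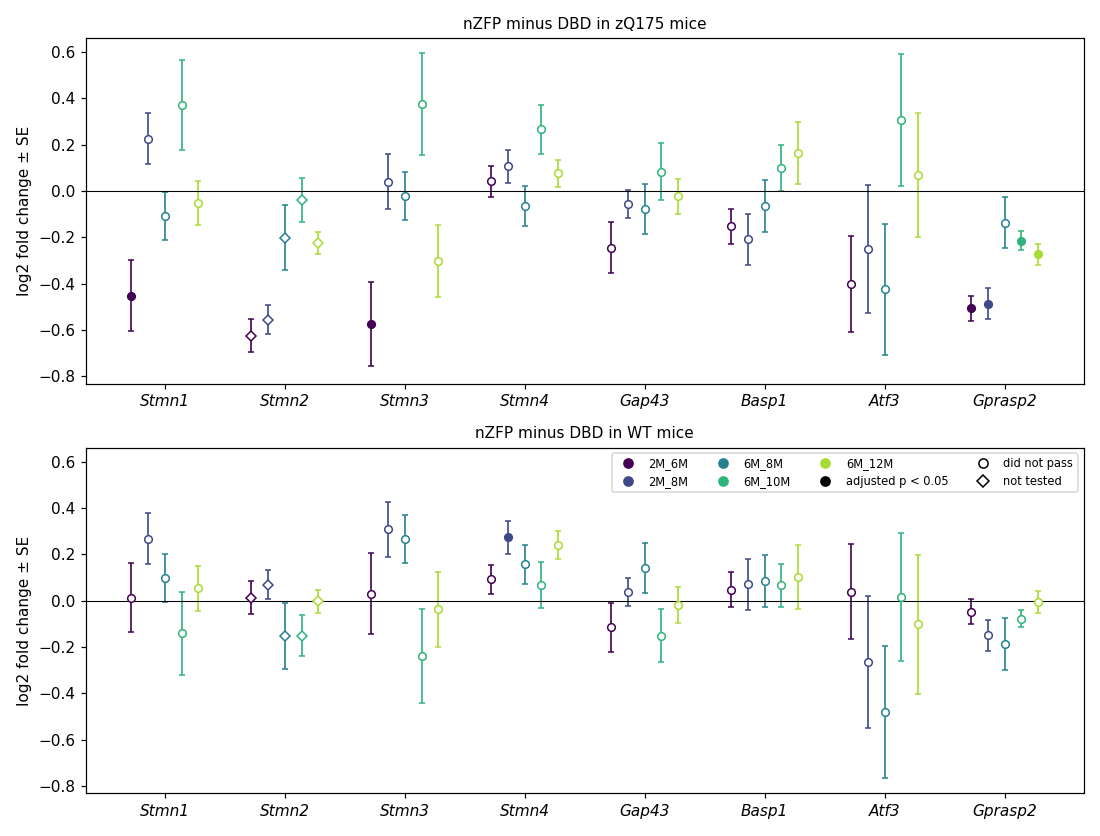
Log2 fold change of nZFP over DBD (y axis, bars are SE) for the 8 members in zQ175 mice (top) and WT mice (bottom) in the 5 paradigms (colours). Filled points have an adjusted p under 0.05, open circles do not, and diamonds mark Stmn2, which was not tested. Gprasp2 lies below 0 in all paradigms of zQ175, at -0.51 to -0.14.

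Hemispheres of the same mouse were compared as well. Of 18 zQ175 mice with an nZFP and a DBD hemisphere, 17 had less Stmn2 and 18 less Gprasp2 under nZFP. The median ratio of nZFP over DBD for Stmn2 was 0.682, 0.713, 0.806, 0.969 and 0.838, and for Gprasp2 0.708, 0.746, 0.881, 0.807 and 0.827, over 3 or 4 mice per paradigm. Of 19 mice with an nZFP and an Estop hemisphere, 18 had less of each. In WT, nZFP was the lower hemisphere in 10 of 19 mice for Stmn2 and 11 of 19 for Gprasp2 against DBD. The 1 zQ175 mouse with more Stmn2 under nZFP than DBD was of 6M_10M, and its nZFP hemisphere was the length-index library R2 at 159.9 CPM. One of the counted zQ175 mice, of 6M_8M, had R5 as its nZFP hemisphere (77.0 CPM of Stmn2). Without the libraries that went against their label the zQ175 counts were 16 of 17 mice for Stmn2 and 17 of 17 for Gprasp2, and the WT counts 8 and 9 of 17. These mice are a subset of the groups above and no further evidence. With the mouse as a block, Gprasp2 passed in the same 4 paradigms.

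**Figure D4:**
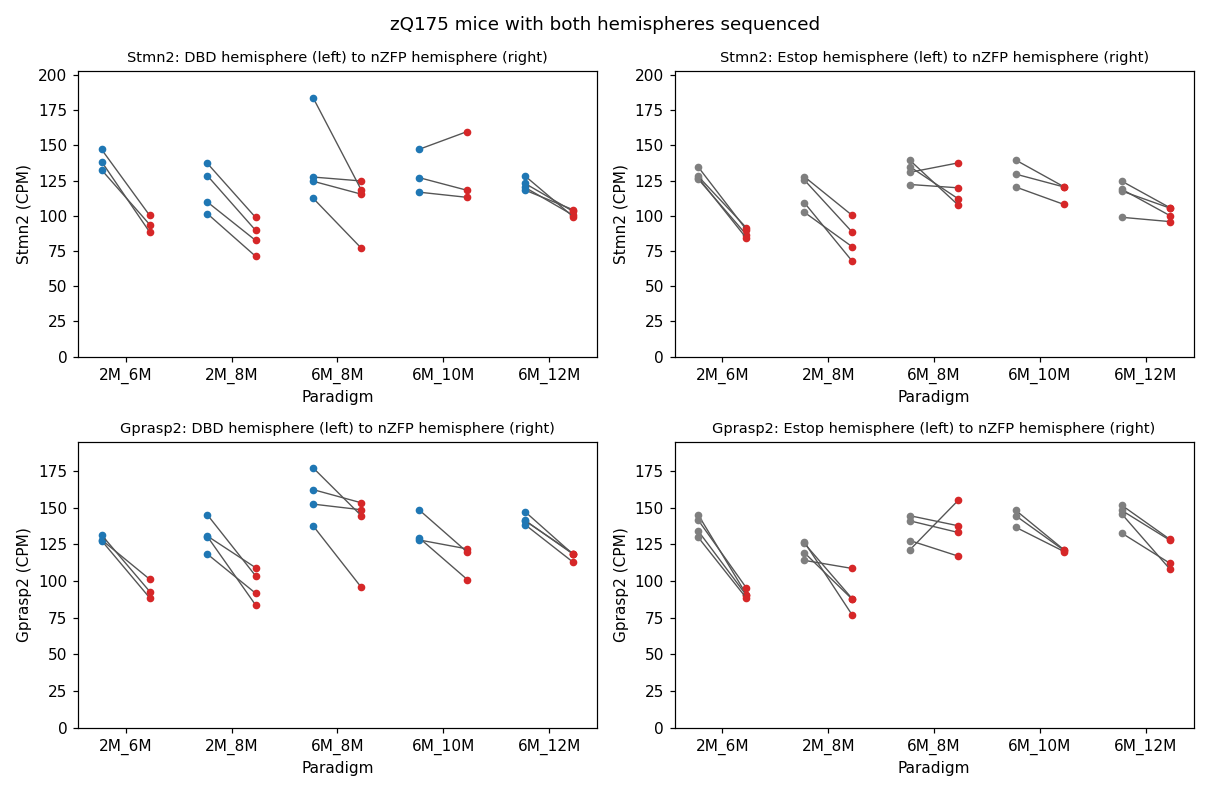
Stmn2 (top) and Gprasp2 (bottom) in CPM (y axis) in zQ175 mice with 2 sequenced hemispheres, by paradigm (x axis). Each line joins the control hemisphere (DBD on the left panels, Estop on the right panels) to the nZFP hemisphere of 1 mouse. Lines fall in 17 of 18 (Stmn2) and 18 of 18 mice (Gprasp2) against DBD.

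Stmn1 (-0.45, adjusted p = 0.0293) and Stmn3 (-0.57, adjusted p = 0.0206) also passed as lower under nZFP in zQ175 of 2M_6M. Both calls ended without zQ175 DBD R3 (-0.06 each, adjusted p = 0.613 and 0.580), and against Estop Stmn1 turned to 0.10 and Stmn3 to -0.02. The 2 differences between early and late injection that passed, Stmn1 at -0.82 (SE 0.20, adjusted p = 0.00311) and Stmn3 at -0.97 (SE 0.24, adjusted p = 0.00388) in 2M_6M minus 6M_10M, were 0.06 and 0.07 without the length-index libraries. In that difference 12.3% of all genes passed, and 0.0834% in 2M_8M minus 6M_12M. Gprasp2 did not pass in it (-0.28, adjusted p = 0.0521), and passed without the libraries that went against their label (-0.28, adjusted p = 0.0326). Across libraries Stmn1 and Stmn3 were high where the length index was low. The 3 libraries below 0 had 483, 320 and 487 CPM of Stmn1 and 1006, 623 and 811 CPM of Stmn3, above every other library for Stmn3.

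**Figure D5:**
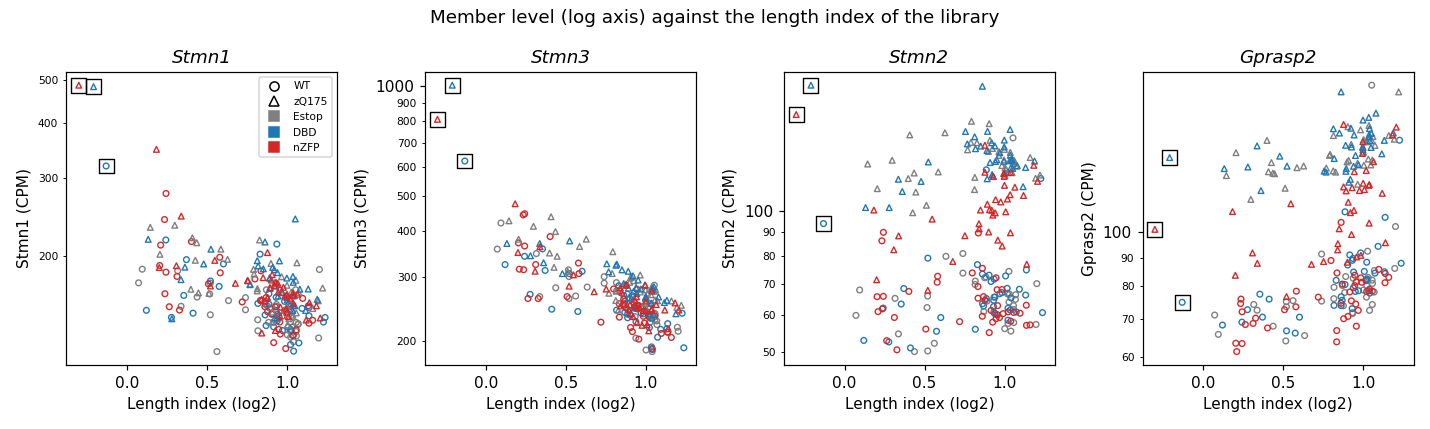
Level of Stmn1, Stmn3, Stmn2 and Gprasp2 in CPM (y axis, log scale) against the length index (x axis, log2 units) in each of the 233 libraries. Circles are WT, triangles zQ175, colours the virus, and squares frame the 3 libraries below 0, which hold 623 to 1006 CPM of Stmn3.

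Gap43, Basp1, Atf3 and Stmn4 did not pass under nZFP in zQ175 in any paradigm. Gap43 differed by -0.25 to 0.08, Basp1 by -0.21 to 0.16, Atf3 by -0.43 to 0.31 and Stmn4 by -0.07 to 0.27. These ranges without the length-index libraries were -0.11 to -0.02 for Gap43, -0.21 to 0.16 for Basp1, -0.43 to 0.38 for Atf3 and -0.07 to 0.12 for Stmn4. In WT mice 1 of 35 tests passed, Stmn4 in 2M_8M, with 201 ± 34.2 CPM under nZFP and 174 ± 19.9 CPM under DBD (log2 difference 0.27, adjusted p = 0.0297). The length index ran from 0.20 to 0.58 in these nZFP libraries and from 0.24 to 1.02 in these DBD libraries. Stmn4 also passed in 6M_10M without the length-index libraries (0.18, adjusted p = 0.0232). The share of all genes that passed there was 0.268%, 2.98%, 0.581%, 0.48% and 0.238%. Between the control viruses, DBD minus Estop, the members passed 0 of 35 tests in WT, where 0.108%, 0.196%, 0.188%, 0.669% and 0.167% of all genes passed. At an unadjusted p under 0.05 edgeR gave 1, Stmn4 in 6M_12M, and DESeq2 also called 0 after adjustment. In zQ175 they passed 1 of 35, Stmn1 in 2M_6M at 0.55 (adjusted p = 0.0415), which ended without zQ175 DBD R3 (0.16, adjusted p = 0.522). There 4.5%, 0.184%, 0.0562%, 0.234% and 0.29% of all genes passed.

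Other genes of axon growth moved in both directions in zQ175 under Estop. The lists were put together with earlier results of these data known, and their counts describe them. Beside them, 10.1%, 8.4%, 8.07%, 12.1% and 8.48% of all genes rose and 9.28%, 8.53%, 6.64%, 11.1% and 8.92% fell. Of 18 tubulin, collapsin response and microtubule-associated genes, 4, 4, 3, 4 and 4 rose and 2, 2, 1, 3 and 3 fell, with medians of -0.01 to 0.08 beside a median of -0.00 to 0.02 over all genes. Dpysl3 (0.74, 0.69, 0.45, 0.74 and 0.81), a collapsin response mediator of growth cones, Dpysl4 (0.35 to 0.55) and the tubulin gene Tubb2a (0.27 to 0.47) rose in all 5 paradigms. Of the 4 growth-cone membrane genes 2, 2, 0, 2 and 1 rose, Marcksl1 among them (0.42, 0.60, 0.77 and 0.78, and 0.24 in 6M_8M, which did not pass). Among 12 injury and regeneration factors, Sox11 rose in 4 paradigms (1.12, 1.03, 1.03 and 0.81, and 0.48 in 6M_8M, which did not pass), while Jun fell in the first 3 (-0.41, -0.29 and -0.22).

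Genes that accompany Atf3 moved in both directions under Estop as well, and the shares of all genes given above stand beside their counts. Of 8 partners in the integrated stress response, 2, 3, 1, 2 and 3 fell and 1 rose, in 6M_10M. Trib3, a pseudokinase induced by stress, fell in all 5 paradigms (-0.91, -1.31, -0.65, -0.94 and -1.02). Of 12 regeneration-associated effector genes 1, 4, 1, 4 and 3 rose and 2, 3, 3, 3 and 3 fell. Cacna2d1, a calcium channel subunit, rose in all 5 paradigms (0.28 to 0.39) and Sprr1a, an injury-induced gene of sensory neurons, fell in all 5 (-2.51 to -1.58). Of the 21 measured genes of the X-linked cluster, 6, 6, 7, 8 and 4 rose and 0 fell, with medians of 0.15 to 0.25. Beside Gprasp2 these included Armcx6 (0.84, 0.68, 0.47, 0.76 and 0.65) and Armcx5 (0.24 to 0.42).

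Under nZFP minus DBD in zQ175, 16, 9, 1, 3 and 3 of the 21 X-linked genes fell and 0 rose, where 14.4%, 2.9%, 0.0688%, 0.41% and 0.573% of all genes fell. The count and share of 2M_6M include the length-index library zQ175 DBD R3 and are not given without it. Tceal6 fell in all 5 paradigms (-1.78, -1.54, -1.39, -1.93 and -2.02) and Nap1l3 in all but 6M_8M (-1.88, -1.50, -1.91 and -1.99), both by more than Gprasp2. Sox11 (-1.14 and -0.84) and the microtubule-associated gene Dcx (-0.70 and -0.58) fell in 2M_6M and 2M_8M and not in the later paradigms. Medium spiny neuron markers went the other way from Stmn2: 11, 9, 11, 12 and 10 of 13 fell in zQ175 under Estop, while 10, 9, 0, 8 and 5 rose and 1 fell, in 2M_6M, under nZFP, where 8.8%, 4.16%, 0.0438%, 0.562% and 0.676% of all genes rose. Of 10 markers of all neurons, 1 rose and 0 fell in each paradigm in zQ175 under Estop, the synaptic vesicle gene Syp (0.66 in 2M_6M). Their summed level stood higher in zQ175, as Stmn2 did: 5219 to 5651 CPM in WT Estop and 5723 to 6487 CPM in zQ175 Estop in 2M_6M, and 5347 to 5637 against 5962 to 6582 CPM in 6M_10M. The genotypes did not overlap in this sum in these 2 paradigms. They overlapped in 2M_8M (4328 to 5431 against 5095 to 6429 CPM), 6M_8M (5245 to 6248 against 5717 to 6141 CPM) and 6M_12M (4332 to 5533 against 5167 to 6421 CPM). In 2M_6M the sums of zQ175 DBD (5056 to 6046 CPM) and zQ175 nZFP (5203 to 5568 CPM) overlapped. The list of immature neuron and progenitor markers, which holds Sox11 and Dcx, had 4, 2, 0, 3 and 3 of 10 genes higher and 0, 0, 0, 1 and 2 lower in zQ175 under Estop. Its summed level of 172 to 226 CPM in zQ175 Estop of 2M_6M overlapped that of WT Estop at 162 to 214 CPM. Of the 9 cortical excitatory markers 6, 6, 9, 8 and 7 passed the filter on low counts, and 2, 1, 2, 5 and 4 rose. All 9 summed to 28.2 to 32.4 CPM in zQ175 and 23.9 to 31.2 CPM in WT in 2M_6M, and no marker of either list was at 0 there. In 6M_10M this cortical sum did not overlap under Estop, at 30.8 to 35.6 CPM in zQ175 and 23.5 to 27.0 CPM in WT. The genotypes overlapped in 2M_8M, 6M_8M and 6M_12M. The sum reached 149 CPM in zQ175 Estop and 59.1 CPM in WT Estop of 6M_8M. Its medians in 6M_12M were 39.3 and 16.2 CPM. The part of these cell types and of neurons as a whole in the Stmn2 values was not tested.

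Over the 30 group means of log2 CPM, the genes most like Stmn2 among 12712 were Rgs19 (Pearson r 0.983), Sh3yl1 (0.982), Sfmbt2 (0.979), Ccdc87 (0.978) and Mb21d2 (0.977). For Gprasp2 they were Ahi1 (0.982), Maged1 (0.982) and Ccdc87 (0.980), so that Ccdc87 stands near both. Among the members Stmn2 followed Gprasp2 (r 0.963) and Gap43 (0.958), Stmn1 followed Stmn3 (0.862), and Stmn4 ran at -0.19 with Stmn2. Gap43 was most like Flot1, Sh3yl1 and Psme1 (0.962 to 0.969), and genes near the top for Basp1 were Dpysl3 (0.959) and Hip1r (0.958), and for Atf3 Eif2ak2 (0.941) and Luc7l2 (0.933). Stmn3 was most like Nme1, Vps45 and Ppia (0.954 to 0.981), Stmn1 like Idnk, Tmed3 and Rnaseh2c (0.930 to 0.942), and Stmn4 like Stx4a, Nudt3 and Usf2 (0.848 to 0.924). The means share genotype, virus and libraries, so these values only describe the profiles.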

How the data were processed

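Expected counts per gene were deposited by the authors, who per the submitters' processing notes used RSEM and the build GRCm38. Expected counts are estimates that need not be whole (90.3% were). The annotation release and the strand setting: not given in the sources used here. A second table deposited by the authors, named as FPKM, sums to 1e+06 in every library and was therefore read as TPM. It was used only to compare levels between genes. Rounded expected counts entered edgeR 4.0.16 (R 4.3.3) with TMM scaling, filterByExpr on the groups and a robust quasi-likelihood model that included sex. Each paradigm was fitted once with its 6 groups, on 15673, 15786, 16000, 15840 and 15523 genes, and a fit of all 30 groups (16792 genes) gave differences between paradigms. Benjamini-Hochberg adjusted p-values cover all genes tested, and 0.05 was the threshold. Levels are CPM of rounded counts, with 6 vector entries left out (at most 0.669% of a library). Counting error is small beside the spread between libraries except for Atf3. Scripts were tested on simulated data.

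The members, lists and comparisons were chosen with earlier results of these data known. Named genes were the members, their most similar genes over group means (mean of at least 1 CPM, no predicted-gene symbols) and up to 3 genes per list with the smallest geometric mean p. Some of the most similar genes are not reported here. Hemispheres come from 120 mice by the labels' sample identifiers: 37 with nZFP and DBD, 37 with nZFP and Estop, 39 with DBD and Estop, although the design text has 1 hemisphere always under nZFP. Deviations from group means correlated between hemispheres of a mouse (median r 0.388, 113 pairs) more than between other pairs with the same replicate number (0.145) or another number (-0.017). Libraries were held to contradict their label with more than 50 CPM of the repressor outside nZFP or less within it, or under 100 CPM of WPRE in a DBD library. The WPRE minimum was set after these values were seen, and a higher minimum had marked further DBD libraries. Alternatives were DESeq2 1.42.0, no filter, hemisphere, length index, replicate number or mouse as a term, Estop as the control, and leaving libraries out. Leaving out the 3 length-index libraries or WT Estop R2 of 6M_8M, the latter for its own member values, was added after the data were seen.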

Additional observations from a re-analysis of the deposited data

Results flagged for a closer look

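In 240 checks of 1 member in 1 group, 42 found a single library far from the rest, in 23 libraries, where chance gives about 1 in 20. All values are CPM. The 3 libraries with a length index below 0 account for many of them. zQ175 DBD R3 of 2M_6M stood highest in Stmn1 (483.1), Stmn2 (184.6), Stmn3 (1006), Gap43 (560.7) and Basp1 (160.8). WT DBD R2 of 6M_10M stood highest in Stmn1 (319.6), Stmn2 (93.9), Stmn3 (623.4), Stmn4 (245.7) and Gap43 (414.9). zQ175 nZFP R2 of 6M_10M stood highest in Stmn1 (486.9), Stmn2 (159.9), Stmn3 (811.0), Stmn4 (276.1), Gap43 (491.1) and Basp1 (155.3), and lowest in Gprasp2 (101.0). WT Estop R2 of 6M_8M stood highest in Stmn2 (142.7), Basp1 (182.5) and Gprasp2 (181.9).

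Of the libraries whose vector entries went against the label, WT DBD R7 of 6M_8M stood highest in Atf3 (4.62) and Gprasp2 (145.3), and WT DBD R6 of 2M_6M in Atf3 (1.55). Stmn1 was also set apart in WT nZFP R5 (277.0) and zQ175 nZFP R2 (348.6) of 2M_8M, WT DBD R1 (212.8) and zQ175 nZFP R1 (203.6) of 6M_8M and WT nZFP R2 of 6M_10M (183.2). For Stmn2 it was WT nZFP R5 of 2M_8M (89.9). For Stmn3 it was WT DBD R7 of 2M_6M (306.3), WT nZFP R8 of 6M_8M (443.9) and zQ175 nZFP R1 of 6M_12M (304.0). Stmn4 stood highest in zQ175 DBD R1 of 6M_8M (207.8), and Gap43 in WT nZFP R2 of 6M_10M (285.8). Basp1 was set apart in WT Estop R1 of 2M_6M (116.3), zQ175 Estop R7 (156.4) and zQ175 DBD R8 (192.9) of 6M_8M. Atf3 was set apart in zQ175 DBD R5 of 6M_10M (2.90), WT Estop R1 (1.28) and zQ175 DBD R5 (3.32) of 6M_12M, and Gprasp2 in WT nZFP R3 (103.9) and zQ175 Estop R6 (177.0) of 6M_8M.

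The response to nZFP in zQ175 differed between early and late injection, by a test of the difference, for Stmn1 (-0.82) and Stmn3 (-0.97) in 2M_6M minus 6M_10M on the log2 scale. Both passed only with the length-index libraries in the fit.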

How the results depend on the processing

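Counts of member calls over the paradigms moved by over 1.5 times in these cases. With the length index as a covariate the genotype comparison had 28 calls under Estop (17 as reported) and 25 under DBD (14), nZFP minus DBD in WT had 3 (1), and DBD minus Estop in zQ175 and the early minus late difference had 0 (1 and 2). Without the 3 length-index libraries these last 3 had 2, 0 and 0. With Estop as the control virus nZFP in WT and the early minus late difference had 0 each. DESeq2 gave 2 for nZFP in WT and 2 for DBD minus Estop in zQ175, and the latter had 0 without the filter, with hemisphere as a covariate and with the mouse block. Reversed signs were few: Stmn1 in zQ175 of 2M_6M under nZFP against Estop (0.10), Stmn1 under DBD in 6M_10M with the length index (0.19) and without the length-index libraries (0.19), Stmn3 under DBD in 6M_10M with the length index (0.17), Stmn3 under nZFP in 6M_12M with the length index (0.12), and the early minus late differences of Stmn1 (0.059) and Stmn3 (0.067) without the length-index libraries. The cause was not tested. Depth limits only Atf3.

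With the replicate number as a block, the counts were 20 for genotype under Estop, 17 under DBD, 14 under nZFP, 6 for nZFP minus DBD in zQ175, 2 in WT, 0 for DBD minus Estop in zQ175, 0 in WT and 3 for early minus late. The number pairs hemispheres of 59 of the 113 mice only, so the mouse block is the closer fit, and it kept 4 calls of nZFP minus DBD in zQ175, all of Gprasp2.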

Other observations

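The relation of each member to the level of the repressor was examined after the data were seen, over 36 zQ175 nZFP libraries without those that went against their label or had a length index below 0, with log2 CPM centred within paradigms. Of 8 relations, 1 passed Benjamini-Hochberg adjustment over the 8: Stmn3 was lower where the repressor was higher, with Pearson's r -0.586 (permutation p = 0.00125, adjusted 0.0100, two-sided) and Spearman's rho -0.524 (permutation p = 0.0035, adjusted 0.0280). Without the 2 libraries farthest from the median repressor level r was -0.665. Within paradigms r for Stmn3 was -0.36, -0.59, -0.92, 0.84 and -0.85 over 8, 8, 7, 5 and 8 libraries, so that 6M_10M ran the other way. The repressor level also ran with the length index (r 0.582), as did Stmn3 (r -0.847), and the part of the length index in this relation was not tested. For Gprasp2 r was -0.217 (adjusted permutation p = 0.359) and for Stmn2 -0.263 (adjusted permutation p = 0.323), with signs that differed between paradigms for both. Within paradigms r was -0.86, -0.10, -0.50, 0.01 and 0.48 for Gprasp2. For Stmn2 it was -0.89, -0.09, -0.77, 0.81 and 0.77. The values within paradigms were not tested.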
